A study of Rattus norvegicus with 6 samples.

Results

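The GIMAP family (GTPases of immunity-associated proteins) was examined in whole blood, over 6 probe sets of 31099 on the array. They were all probe sets whose gene symbol in the array annotation starts with Gimap, and they measured 5 of the 14217 genes that the annotation names, with 2 probe sets for Gimap1 and 1 each for Gimap4, Gimap5, Gimap6 and Gimap7. RefSeq (GRCr8) holds 7 Gimap genes, next to each other on chromosome 4 in the order Gimap8, Gimap9, Gimap4, Gimap6, Gimap7, Gimap1 and Gimap5. No probe set carries the symbol Gimap8 or Gimap9, and these 2 genes were not analysed here. None of the 6 probe sets carried several symbols.

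Blood RNA was compared between 3 male Sprague-Dawley rats after middle cerebral artery occlusion (MCAO) and 3 sham-operated males, all 8 weeks old, with 1 array per rat. In the MCAO group a coated thread closed the origin of the left middle cerebral artery for a time, and in the sham group an uncoated thread was inserted by the same route. Blood was drawn from the heart 24 h after reperfusion. The MCAO rats had been picked from a larger number by the size of their infarct, so they stand for infarcts of similar size. The question was whether infarction changes gene expression in blood.

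GIMAP proteins bind guanine nucleotides through a shared GTPase domain, sit mostly on membranes inside the cell, and are made mainly by lymphocytes. They are known for keeping lymphocytes alive at rest. In the rat, a loss of Gimap5 at the locus called lyp causes the T cell lymphopenia of the diabetes-prone BB strain, and in mice Gimap1 is needed for mature T and B cells, whereas Gimap4 speeds the death of T cells. Gimap6 takes part in autophagy in mice, and human GIMAP7 stimulates GTP hydrolysis of a related member.

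Upstream DNA is shown for the 4 genes that varied together in the results below, as the 250 bases before the RefSeq start site (GRCr8), 5′ to 3′ on the strand of the gene. Capitals mark GGAAGT on either strand, a core of the sites of ETS factors, which are transcription factors of blood cells. The windows are chr4:78967047-78967296 (plus strand) for Gimap4, chr4:79024975-79025224 (plus strand) for Gimap5, chr4:78990007-78990256 (minus strand) for Gimap6 and chr4:79001166-79001415 (plus strand) for Gimap7.
Gimap4: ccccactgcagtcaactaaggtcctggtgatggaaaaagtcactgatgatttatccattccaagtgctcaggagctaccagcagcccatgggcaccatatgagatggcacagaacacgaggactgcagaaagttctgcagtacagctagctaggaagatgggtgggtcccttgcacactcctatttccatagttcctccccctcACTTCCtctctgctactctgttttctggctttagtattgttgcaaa
Gimap5: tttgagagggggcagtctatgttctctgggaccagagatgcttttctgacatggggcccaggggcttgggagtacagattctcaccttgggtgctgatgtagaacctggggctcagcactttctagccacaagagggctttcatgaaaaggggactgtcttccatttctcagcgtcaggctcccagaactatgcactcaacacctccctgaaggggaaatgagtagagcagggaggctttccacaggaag
Gimap6: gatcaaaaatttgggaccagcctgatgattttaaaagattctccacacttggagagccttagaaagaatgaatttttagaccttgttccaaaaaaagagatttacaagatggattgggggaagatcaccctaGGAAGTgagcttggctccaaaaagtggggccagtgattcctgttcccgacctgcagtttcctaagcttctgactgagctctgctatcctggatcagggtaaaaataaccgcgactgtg
Gimap7: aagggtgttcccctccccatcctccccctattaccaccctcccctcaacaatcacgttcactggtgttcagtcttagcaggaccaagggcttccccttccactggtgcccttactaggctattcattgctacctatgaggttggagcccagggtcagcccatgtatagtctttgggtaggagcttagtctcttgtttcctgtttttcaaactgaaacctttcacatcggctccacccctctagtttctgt
These letters occur in the windows of Gimap4 and Gimap6 and not in those of Gimap5 and Gimap7. Over the family they occur in 4 of 7 windows, in Gimap1 and Gimap9 as well, against 19.2% of 33469 windows of all genes. TGTGGT, a core of RUNX sites, occurs in Gimap1 and Gimap8 (14.5% of all windows), and CANNTG, the E-box, in Gimap4, Gimap6 and Gimap8 (65.5%). CCAAT occurs in Gimap6 and Gimap9 (34% of all windows). TGGGAA, a core of Ikaros sites (22.1%), and TATAAA, the TATA box (12.9%), occur in none of the 7. Both strands were searched, and a match is a run of letters, not a site shown to be used.

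The values are log2 expression after the DFW (Distribution Free Weighted) method, which contracts differences between arrays. Between its lowest and highest array, the median probe set spanned 6.55e-06, and 168 of 31042 probe sets other than controls ranged over more than 0.01. Differences are therefore given on the DFW scale and are not fold changes of raw intensity. MCAO rat 1 stood apart among the 3310 probe sets with a range of at least 0.0001, being the lowest rat at 56.8% of them. Over all 31042 probe sets it was the lowest rat at 19.5% and the highest at 30%. The tissue label was checked with 32 defining markers of blood cell types, of which 29 were measured and 26 of these lay above the 75th percentile of brightness. The brightest probe set stood for each gene, which favours passing, so the check is weak. No detection call comes with the values, and 3 arrays per group limit how precise they are.

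Of the family, Gimap6 (1378526_at) had a mean of 6.83 over the 6 rats, Gimap4 (1377286_at) of 6.61, Gimap5 (1380617_at) of 6.08 and Gimap7 (1392322_at) of 5.68. The Gimap1 probe sets had means of 5.65 (1380210_at) and 5.64 (1382328_at). The brightness of a probe set also depends on its probes, so this is no order of abundance. Gimap4 and Gimap6 were brighter than 94.1% and 95.6% of probe sets, and the Gimap1 probe sets were brighter than 58.8% and 57.8%.

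All 6 probe sets had a lower mean in the MCAO group than in the sham group in the deposited values, but none was called, and Gimap1 turned higher under other scalings (both probe sets after centring of each array on its median, 1382328_at after quantile normalization, where 1380210_at had a difference of 0). The groups overlapped at each of the 6. Gimap4 lay at 6.60622, 6.60760 and 6.60754 in MCAO rats 1 to 3, against 6.60739, 6.60805 and 6.60796 in sham rats 1 to 3. MCAO rat 1 was the lowest of the 6 and sham rats 2 and 3 the highest, while sham rat 1 lay within the MCAO rats. Gimap4 averaged 6.6071 ± 0.00078 over the MCAO rats and 6.6078 ± 0.00036 over the sham rats (SD, 3 rats each), and limma put the log2 difference at -0.00068 (SE 0.00047). Rank Products gave it a false discovery rate (FDR) of 0.221 for being lower, at rank 574 of 31042.

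Gimap5, the gene of the lyp locus, lay at 6.07998, 6.08035 and 6.08020 in MCAO rats 1 to 3, against 6.08022, 6.08050 and 6.08042 in sham rats 1 to 3. MCAO rats 1 and 3 were the lowest pair, but MCAO rat 2 lay above sham rat 1, so that the groups overlapped by a single rat. The log2 difference was -0.00020 (SE 0.00013, FDR 0.295).
Gimap7 lay at 5.68227, 5.68246 and 5.68243 in MCAO rats 1 to 3, against 5.68242, 5.68252 and 5.68251 in sham rats 1 to 3, with a log2 difference of -0.000096 (SE 0.000063, FDR 0.564). Gimap6 lay at 6.82963, 6.82969 and 6.82968 in MCAO rats 1 to 3, against 6.82967, 6.82973 and 6.82971 in sham rats 1 to 3, with a log2 difference of -0.000034 (SE 0.000023, FDR 0.802). In each of them MCAO rat 1 was again the lowest and sham rat 2 the highest, with sham rat 1 within the MCAO rats.

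Gimap1 varied far less. At 1380210_at it lay at 5.651244, 5.651250 and 5.651249 in MCAO rats 1 to 3, against 5.651243, 5.651250 and 5.651253 in sham rats 1 to 3. At 1382328_at it lay at 5.641810, 5.641818 and 5.641817 in MCAO rats 1 to 3, against 5.641816, 5.641820 and 5.641812 in sham rats 1 to 3. The lowest rat differed between the probe sets, as it was sham rat 1 at the first and MCAO rat 1 at the second. The log2 differences were -6.7e-07 (SE 3.4e-06) and -1.3e-06 (SE 3.1e-06), smaller than their errors.

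**Figure D1:**
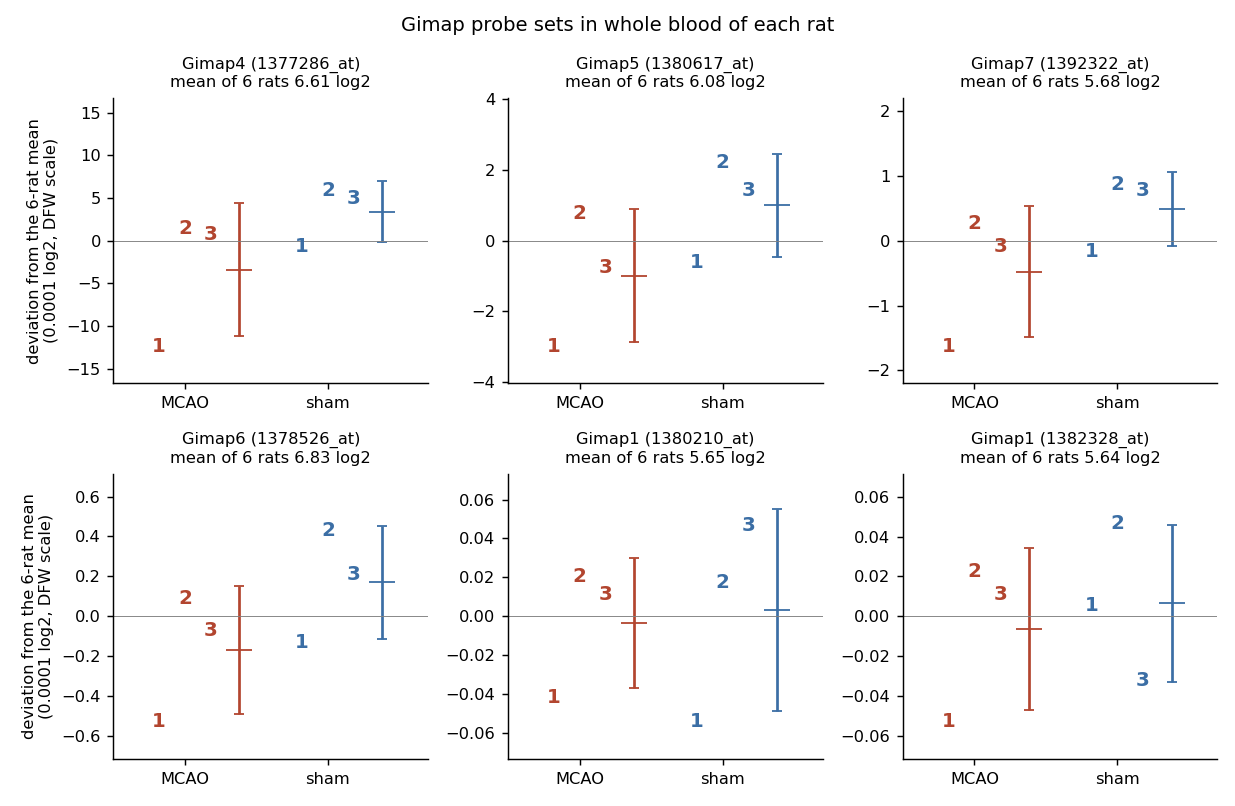
Deviation of each rat from the mean of the 6 rats (y axis, in 0.0001 log2 units on the DFW scale) for the 6 Gimap probe sets, with MCAO left of sham, digits for the rat of each group, and bars for the mean with the SD of 3 rats. Each panel has its own y axis, and MCAO rat 1 lay lowest in 5 of 6 panels, while MCAO rat 2 lay within the range of the sham rats in all 6.

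By Rank Products 0 of 6 Gimap probe sets were called lower and 0 of 6 higher at an FDR under 0.05, where 0.561% of all probe sets were called lower and 0.135% higher. By limma 0 of 6 had an unadjusted p under 0.05, against 3.7% of all probe sets, and 0 had an adjusted p under 0.05, against 0% of all. Exact two-sided permutation p were 0.2 for Gimap5, 0.3 for Gimap4, Gimap6 and Gimap7, and 0.9 and 0.7 at the Gimap1 probe sets, where 3 rats against 3 cannot go below 0.1. Groups did not overlap at 0 of the 6, against 8.41% of all probe sets, which were 3.6% with every MCAO rat below every sham rat and 4.82% with every MCAO rat above. MCAO rats had the lower mean at 46.6% of all probe sets, and the median log2 difference was -6.5e-05 over the 6 and 6.7e-08 over all. MCAO rat 1 weighed on these values, since without it the log2 difference was -0.00023 (SE 0.00025) for Gimap4, -0.000099 (SE 0.00011) for Gimap5, -0.000039 (SE 0.000041) for Gimap7 and -0.000016 (SE 0.000020) for Gimap6, and both Gimap1 probe sets turned higher. The misses do not show that the groups were alike.

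**Figure D2:**
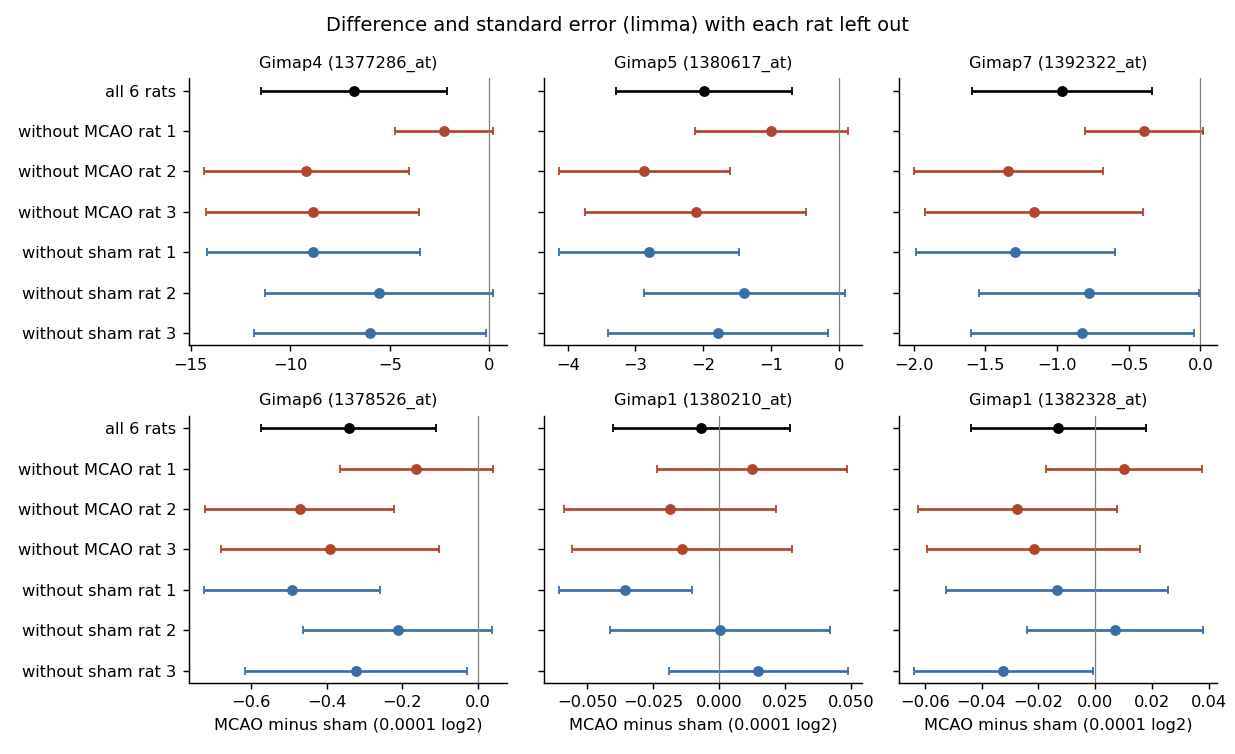
MCAO minus sham log2 difference (x axis, in 0.0001 log2 units on the DFW scale, with its limma standard error as the bar) of the 6 Gimap probe sets, for all 6 rats (black) and without each MCAO rat (red) or sham rat (blue). The x axes differ between panels, and Gimap4, Gimap5, Gimap6 and Gimap7 stayed below 0 with each rat left out, nearest to 0 without MCAO rat 1, whereas Gimap1 fell on either side.

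Most of the family varied together from rat to rat. Gimap4, Gimap5, Gimap6 and Gimap7 ran in the same order within both groups, with rat 1 lowest and rat 2 highest among the MCAO rats and likewise among the sham rats. Of all probe sets 2.26% had both orders, as had 3.9% of those with a range of at least 0.0001. Gimap4, Gimap6 and Gimap7 had the same order over all 6 rats (MCAO 1, sham 1, MCAO 3, MCAO 2, sham 3, sham 2, from low to high), an order found at 0.29% of all probe sets and at 1.15% of those with a range of at least 0.0001. These shares describe the array and are no test.

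Over the 6 rats the 6 pairs among these 4 genes had Pearson's r from 0.948 (Gimap4 and Gimap5) to 0.992 (Gimap4 and Gimap7) and Spearman's rho from 0.943 to 1. Each pair passed after adjustment over all 10 pairs of Gimap genes, with 1 probe set per gene (exact two-sided permutation p from 0.0014 to 0.0028, adjusted p = 0.0046 for r, and adjusted p from 0.0093 to 0.028 for rho). In the values as deposited, r stayed high without the extreme rats, though it was not tested over the remaining ones. Without MCAO rat 1 and sham rat 2, the farthest from the median, r was 0.873 to 0.984, and over deviations from the group means, which hold no group difference, it was 0.922 to 0.989. After quantile normalization of the deposited values, however, the same 6 pairs had r from -0.10 to 0.738, so the close co-variation holds for the DFW values as deposited. The quantile step moved single Gimap4 values by up to 0.0014, against a range of 0.0018 as deposited, and single Gimap6 values by 0.00019 to 0.00052, against a range of 0.000096. After centring of each array on its median, the 6 pairs had r from 0.426 to 0.982, and those among Gimap4, Gimap5 and Gimap7 had 0.926 to 0.982.

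Gimap1 followed the others less closely. Its 4 pairs, with 1380210_at standing for the gene, had r from 0.718 to 0.747 and rho from 0.657 to 0.771, and none passed (exact two-sided permutation, adjusted p from 0.091 to 0.1 for r and from 0.11 to 0.175 for rho). Without sham rat 1, in which Gimap1 was low, r was 0.839 to 0.933, without MCAO rat 1 it was 0.622 to 0.726, and without both, the farthest from the median, it was 0.269 to 0.583. The 2 probe sets of Gimap1 themselves had r = 0.254 (exact permutation p = 0.642) and rho = 0.257 (exact permutation p = 0.658), and r = -0.809 without the 2 rats farthest from the median, so they did not track each other over ranges of 1.0e-05 and 9.9e-06. As a background, the median r was 0.016 over all pairs of probe sets, of which 1.19% had r of at least 0.9, and 0.448 over pairs with a range of at least 0.0001, of which 7.74% did. Among Gimap pairs 6 of 10 did.

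**Figure D3:**
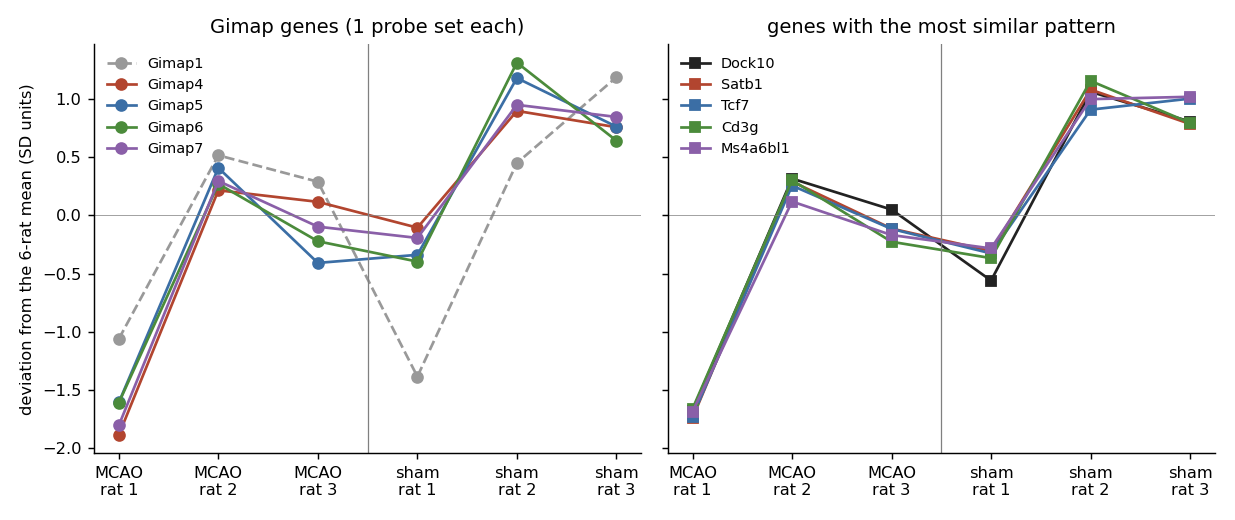
Deviation from the mean of the 6 rats (y axis, in SD of the gene over the 6 rats) for each rat (x axis), for the 5 Gimap genes (left) and the 5 other genes with the most similar pattern (right). Lines only join the points of a gene, and Gimap4, Gimap5, Gimap6 and Gimap7 run together with MCAO rat 1 lowest, while Gimap1 (dashed) departs at sham rat 1.

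The pattern was set beside that of other genes through the mean of the 5 Gimap genes, each scaled to unit SD. Of 863 probe sets with a single other symbol and a range of at least 0.001, the most alike over the 6 rats were Dock10 (r = 0.997), a guanine nucleotide exchange factor, Satb1 (r = 0.993), a chromatin organizer of T cells, Tcf7 (r = 0.993), a transcription factor of T cells, Cd3g (r = 0.992), a CD3 chain of the T cell receptor, and Ms4a6bl1 (r = 0.986). These and the following r with the Gimap mean are of the values as deposited and were not recomputed after quantile normalization. The 5 genes were chosen for this likeness, and 17.7% of the 863 had r over 0.9, so the pattern was widespread. Cd3g lay at 6.752, 6.758 and 6.756 in MCAO rats 1 to 3, against 6.756, 6.760 and 6.759 in sham rats 1 to 3. As for Gimap4, sham rat 1 lay within the MCAO rats. The log2 difference of Cd3g was -0.0031 (SE 0.0021), which Rank Products called lower (FDR 0.0482), as it called Satb1 (FDR 0.0460) and Tcf7 (FDR 0.0204). Dock10 and Ms4a6bl1 were not called (FDR 0.271 and 0.0703). A lower call did not require a lower MCAO mean. The neutrophil genes S100a9 and Lrg1 were called lower (FDR 0.0425 and 0.0331) with log2 differences of 0.0027 (SE 0.028) and 0.0050 (SE 0.022). MCAO rat 1 was the lowest rat at both.

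Part of the T and B cell markers followed the Gimap pattern across rats. Of 22 measured genes of the T cell list, 11 had r over 0.8 with the Gimap mean, and of 13 of the B cell list 6 had, against 6.98% of all probe sets and 28.3% of those with a range of at least 0.0001. Of the other lists, 1 of 17 NK and cytotoxic cell genes, 1 of 13 monocyte genes and 0 of 12 neutrophil, 13 platelet and 13 erythroid genes had. MCAO rat 1 was the lowest rat at 14 of the 22 T cell genes, 10 of the 13 B cell genes, 10 of the 17 NK and cytotoxic cell genes and 6 of the 13 monocyte genes, beside the 56.8% of probe sets with a range of at least 0.0001 given above. Of the chains of the CD8 coreceptor, Cd8b had r = 0.894 and Cd8a had r = 0.412, while the coreceptor Cd4 had r = 0.010 and Cd28, a costimulatory receptor, had r = -0.781. Cd8a, Cd4 and Cd28 were nearly flat, with ranges of 1.4e-06, 4.2e-06 and 3.9e-06 that were below the median range of all probe sets, against 8.8e-05 for Cd8b. Not every marker that departed was flat. Cxcr5 of the B cell list had r = -0.735 with a range of 0.00012, wider than that of Cd8b. Thy1 of the T cell list had r = -0.687, but its range of 6.8e-06 was close to the median range of all probe sets.

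The summed log2 level of the T cell list was 136.96 to 137.00 over the MCAO rats and 136.99 to 137.01 over the sham rats, so that the groups overlapped. That of the B cell list was 81.258 to 81.273 over the MCAO rats and 81.274 to 81.285 over the sham rats, with no overlap. Such a sum follows its widest genes, here Ms4a1 and Fcmr, which ranged over 0.011 each, against 0.0017 for Cr2, the next widest. By Rank Products 3 of 22 T cell genes were called lower (Cd3g, Satb1 and Tcf7) and 0 higher, as were 3 of 13 B cell genes (Ms4a1, Fcmr and Cr2) and 0 higher, against the 0.561% and 0.135% of all probe sets given above. These called genes ranged over 0.0017 (Cr2) to 0.016 (Tcf7), whereas only 1081 of the 31042 probe sets ranged over more than 0.001. The share called among wide-ranging probe sets is not given, so the counts do not show an excess of T or B cell genes. Lower calls also fell on 2 of 17 NK and cytotoxic cell genes (Prf1 and Ccl5) and 2 of 13 monocyte genes (Cd36 and Cybb). Of 12 neutrophil genes 2 were called lower (S100a9 and Lrg1) and 2 higher (Csf3r and Il1r2). Of 13 erythroid genes 1 was called lower (Tfrc), and of 13 platelet genes 2 were called higher (Slc18a2 and Rab27b). The median log2 difference was -2.3e-05 over the T cell list and -0.00012 over the B cell list. All 8 defining markers of T cells were measured, and all lay above the 75th percentile of brightness. In whole blood, fewer cells of a type and less RNA per cell cannot be told apart, and the part of lymphocyte numbers in the Gimap values was not tested.

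**Figure D4:**
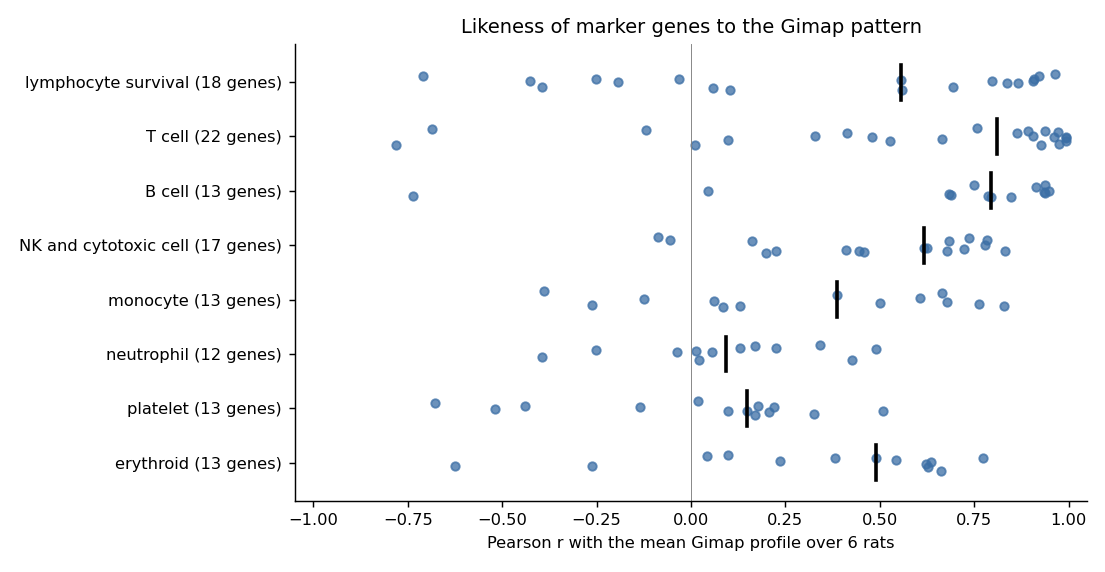
Pearson's r over the 6 rats (x axis) between each measured gene of 8 lists and the mean of the 5 Gimap genes scaled to unit SD, where each point is a gene and the bar is the median of its list. The medians were 0.811 for the T cell and 0.794 for the B cell list, 0.557 for the lymphocyte survival list, 0.618 for the NK and cytotoxic cell list, 0.489 for the erythroid list, 0.386 for the monocyte list, 0.147 for the platelet list and 0.092 for the neutrophil list.

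GIMAP proteins of mice interact with the Bcl2 family, which decides between survival and death of lymphocytes. A list of 20 genes of lymphocyte survival and death was therefore set beside them. It holds members of the Bcl2 family and other genes, such as Il7r, Jak1, Klf2 and Fas. Of 18 measured, 1 was called lower, 0 were called higher and 17 were not called, beside 0.561% and 0.135% of all probe sets, with a median log2 difference of -1.2e-06. The called gene was Klf2, a transcription factor of resting T cells, which lay at 7.505, 7.525 and 7.531 in MCAO rats 1 to 3, against 7.521, 7.532 and 7.529 in sham rats 1 to 3 (log2 difference -0.0076, SE 0.0080, FDR 0.0459). The groups overlapped and MCAO rat 1 stood lowest. Jak1, a kinase of cytokine receptors (r = 0.964), Mcl1, an inhibitor of cell death (r = 0.922), and Il7r, the interleukin 7 receptor (r = 0.905), were close to the Gimap pattern and not called (FDR 0.0605, 0.199 and 1.21 for being lower, an estimate that is not capped at 1). Bcl2 itself and its relative Bcl2l1, both inhibitors of cell death, were not close to it (r = -0.19 and 0.10). Bax had no probe set of its own. In all, 6 of the 18 had r over 0.8, beside 6.98% of all probe sets and 28.3% of those with a range of at least 0.0001. Among these 6, Mcl1 was the only member of the Bcl2 family, and Il7r is also in the T cell list.

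The genes next to the cluster did not share the pattern. Tmem176b and Tmem176a, which encode related membrane proteins and follow Gimap5 in RefSeq order, had r = 0.187 and r = -0.661 with the Gimap mean, and RGD1559747 and Zfp775, a zinc finger gene, which precede Gimap8, had r = -0.80 and r = 0.132. Their ranges over the 6 rats were 2.2e-06 to 1.7e-05, so that they, like Gimap1, hardly varied on the DFW scale. Tmem176a lay at 6.346645, 6.346644 and 6.346645 in MCAO rats 1 to 3, against 6.346642, 6.346636 and 6.346628 in sham rats 1 to 3. Every MCAO rat was above every sham rat (exact permutation p = 0.1, the smallest possible), with a log2 difference of 9.1e-06 (SE 3.8e-06) and no call by Rank Products (FDR 1.04 for being higher).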

How the data were processed

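Total RNA from heart blood was labelled with biotin and hybridized to GeneChip Rat Genome 230 2.0 arrays. Normalization by the authors used the DFW method in R, and each array was deposited as 1 log2 value for every probe set. The log base is not stated and was taken as log2 from the range of 4.93 to 14.43, and no filter is stated. Leaving out 57 control probe sets left 31042.

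Rank Products ran in a Python 3.11.15 script on all 9 MCAO minus sham differences, with 100 random permutations within arrays and calls at an FDR under 0.05. Differences with their standard errors came from limma 3.58.1 in R 4.3.3, whose p values were adjusted by Benjamini-Hochberg across the whole table. Both were fitted on all probe sets and run on simulated data. The simulated noise was independent between probe sets, so these runs do not cover variation that many probe sets of a rat share. Symbols came from the annotation of the array, where 20826 probe sets carry 1 symbol, 436 several and 9780 none, and 20758 matched a RefSeq gene (GRCr8) by gene ID. A gene with several probe sets is given by the brightest. Besides the family, genes were named for likeness of pattern, place next to the cluster or role as cell type marker, and the genes of lists that were called. Gene lists were described by counts. Upstream sequences are from RefSeq (GRCr8). The members, lists and rules were chosen with earlier results of these data known. The alternatives were limma, pairing by rat number, quantile normalization, centring, FDR under 0.01, dim probe sets removed, controls kept, an intensity trend and leaving out each rat.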

Additional observations from a re-analysis of the deposited data

How the results depend on the processing

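No Gimap probe set was called lower or higher by Rank Products, nor by limma in its place, under quantile normalization, centring on array medians, an FDR under 0.01, dim probe sets removed, controls kept or leaving out any rat (0 to 0). The labels give same-numbered rats nothing in common but the number. Their deviations from the group means correlated with r = 0.215, 0.040 and 0.063 over all probe sets. For other-numbered rats r was -0.238 to 0.174, and with so few rats these values cannot decide whether the numbers mark pairs. With the number as a replicate block, 1 probe set was called lower by Rank Products (Gimap4, FDR 0.0492) and none by limma (adjusted p = 0.813 for Gimap4), and calls over all probe sets went to 288 lower and 59 higher, against 174 and 42. The median log2 difference ranged from -9.1e-05 to -2.8e-05 with a rat left out. Of 60 differences of single probe sets under alternatives, 8 reversed, all for Gimap1, and none passed by limma. For 1380210_at they were 2.9e-05 after centring, 1.2e-06 without MCAO rat 1, 5.2e-08 without sham rat 2 and 1.5e-06 without sham rat 3, with 0 after quantile normalization and a range of -3.5e-06 to 1.5e-06 with a rat left out. For 1382328_at they were 4.3e-05 after quantile normalization, 2.8e-05 after centring, 1.0e-06 without MCAO rat 1 and 7.0e-07 without sham rat 2, with a range of -3.2e-06 to 1.0e-06. The median r over the 10 pairs of Gimap genes, 0.951, was 0.927 over deviations from group means and 0.944 to 0.971 with a rat left out. Chosen after the data were seen, quantile normalization gave 0.245 and centring 0.501, where the pairs of Gimap4, Gimap5 and Gimap7 had r from 0.926 to 0.982 after centring and from -0.10 to 0.579 after quantile normalization. The cause was not tested. Over all probe sets, lower calls were 13 without sham rat 3, 21 without sham rat 2, 43 without sham rat 1 and 338 without MCAO rat 3.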
